A study of Mus musculus with 24 samples.

Results

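Ly6C hi and Ly6C low monocytes sorted from the spleens of Slc29a3-/- mice were compared across all genes. The comparison used 8 of the 24 libraries of the study, chosen by their labels as SLC29A3 deficient, with 4 libraries of Ly6C hi cells and 4 of Ly6C low cells. The other 16 libraries were the same subsets from wild-type (WT) mice and from Slc29a3-/- Tlr7-/- mice, again 4 of each. The labels call the sorted cells splenic macrophages, and they were untreated and lysed soon after the sort. Mutant mice were C57BL/6 animals made by CRISPR/Cas9, with a stop codon introduced into Slc29a3 in the germ line, so that every cell of the animal carried it, and in the double mutants also a small deletion in Tlr7. Magnetic beads took out cells of other lineages, among them those bearing CD3, NK1.1, Ly6G or TER-119, and the CD11b+ cells that lacked NK1.1 and Ly6G were sorted as Ly6C hi FcγRIV low or Ly6C low FcγRIV high. The labels add Siglec-F to the markers that the cells lacked. Neither the labels nor the methods say whether each library came from its own animal, so the P values below measure the spread between libraries, which may be partly technical.

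Ly6C hi monocytes, also called classical monocytes, leave the bone marrow through the chemokine receptor CCR2 and can mature in blood and spleen into Ly6C low monocytes, which patrol the vessel wall and depend on the transcription factor NR4A1. SLC29A3 carries nucleosides out of the lysosome, and its loss lets them accumulate there, where TLR7 senses guanosine together with RNA fragments. In mice, loss of SLC29A3 leads to a build-up of monocytes and macrophages in the spleen.

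Values are reads per 1000000 reads (RPM) of 1 short amplicon per gene, and differences are Ly6C hi minus Ly6C low of log2(RPM + 1), a scale on which the change of a gene with few reads is understated. The deposited values held no counts, but all values under 5 RPM were whole multiples of 1 step within 0.1 of a step. With 1 step taken as 1 read, the depth was 12500000 to 12678567 reads in each of the 8 libraries, so that 3 reads, taken as the lowest level that counts as detected, corresponded to 0.237 to 0.240 RPM. The numbers of amplicons with at least 1 read were 13085 to 13934. Xist and the Y-linked Ddx3y, Eif2s3y, Kdm5d and Uty put replicate 1 of both subsets down as male and the other 6 libraries as female, so sex was balanced between the subsets. Xist was at 0.876 and 0 RPM in replicate 1 and at 350 to 534 RPM in the others (difference 0.20, not called). Of the other genotypes, WT replicate 4 was male and WT replicates 1 to 3 were female, and double mutant replicate 1 and Ly6C low replicate 3 were male and replicate 4 female. Double mutant replicate 2 of both subsets and Ly6C hi replicate 3 held more than 10 RPM of both Xist and the Y-linked genes. Because libraries of sorted cells are mixtures, fewer cells of a type and less RNA per cell cannot be told apart in any difference below.

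The subsets differed in a large share of the transcriptome. Of 10137 genes that reached 1 RPM in 4 or more of the 8 libraries, 4081 differed by more than 1.5-fold at an adjusted P below 0.05 (40.3%; limma with Benjamini-Hochberg adjustment). In Ly6C hi cells, 1842 genes were higher (18.2%) and 2239 were lower (22.1%), with 1859 (18.3%) and 2266 (22.4%) at an unadjusted P, and the median difference over all genes was -0.10. The largest differences were mostly increases, since 599 genes were more than 4-fold higher and 296 more than 4-fold lower, and 163 against 36 passed 16-fold. For 5148 genes (50.8%) the 4 libraries of one subset did not overlap the 4 of the other. The first principal component held 86.6% of the variance and separated the subsets. The distance between libraries was 30.2 to 56.6 log2 units within a subset and 118.1 to 146.0 between subsets. Ly6C hi replicate 4 lay farthest from the others of its subset, and 3736 of the 4081 calls were made in the same direction without it.

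**Figure D1:**
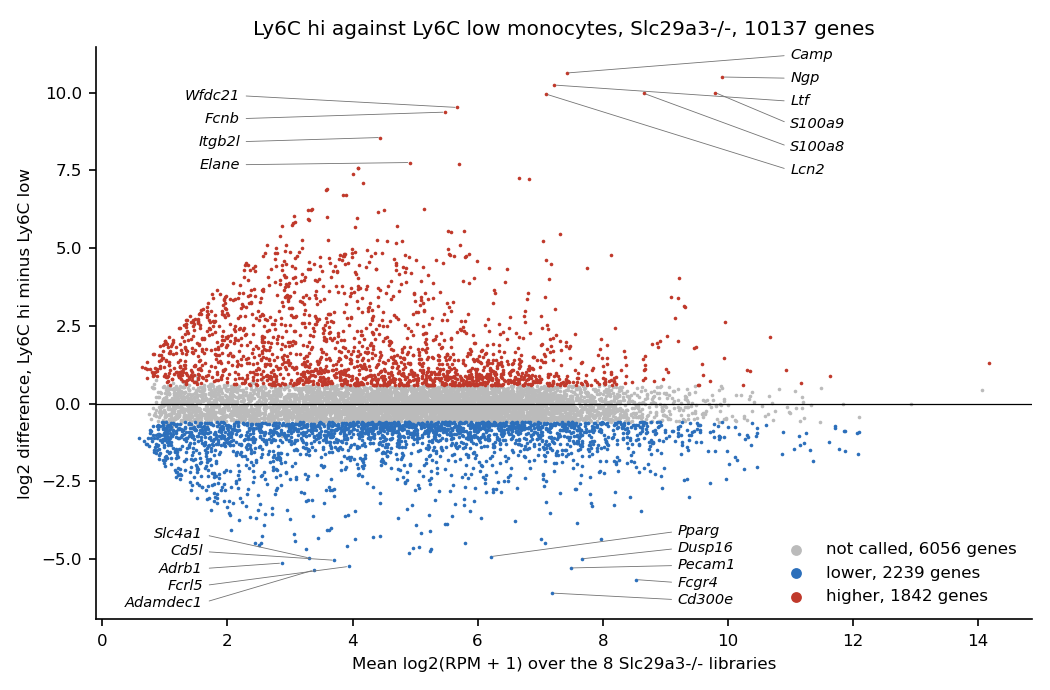
Difference between Ly6C hi and Ly6C low monocytes of Slc29a3-/- mice (y axis, log2) against the mean level of the gene over the 8 libraries (x axis, log2(RPM + 1)), 1 point per gene. Red points are the 1842 genes called higher in Ly6C hi cells, blue points the 2239 called lower, and the 10 largest changes each way with a mean of at least 10 RPM are named; granule genes lie at the top and Cd300e lies lowest of those named.

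The balance of higher and lower calls depended on how the libraries were scaled. The 10 amplicons with the most reads took 15.9% of the reads of Ly6C hi cells and 7.6% of those of Ly6C low cells, and RPM values of all other genes fall when a few genes take more of the reads. With library totals computed without the granule genes described below, an alternative chosen after seeing the data, 2296 genes were higher and 1745 lower, so that 56.8% of the calls were increases in place of 45.1%, and the median of all genes moved from -0.10 to 0.05. Scaling by TMM gave 2046 and 1976 genes and scaling by RLE 2089 and 1921. No call changed direction under any of them, and 3586 of the 4081 calls were made in the same direction with the granule-free totals.

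The genes that define the subsets followed the labels. Fcgr4 encodes FcγRIV and was part of the gate, so its values are a description: 43.7, 62.5, 57.5 and 44.2 RPM in the 4 Ly6C hi libraries and 2323, 2851, 2406 and 3017 RPM in the 4 Ly6C low libraries. Every Ly6C low library was far above every Ly6C hi library. The transcripts of Ly6C itself, Ly6c1 and Ly6c2, were not analysed here. Ccr2, the receptor for emigration from the marrow, was at 636, 350, 264 and 373 RPM in Ly6C hi cells and at 49.9, 18, 32.6 and 34.2 RPM in Ly6C low cells. The groups did not overlap, and the difference was 3.56 ± 0.28 (SE; adjusted P = 2.4e-07). Ace, which encodes angiotensin-converting enzyme and marks Ly6C low monocytes, was at 268, 354, 215 and 67.7 RPM in Ly6C hi cells and at 1212, 1366, 1104 and 1372 RPM in Ly6C low cells. Adgre4, an adhesion receptor of the F4/80 family, was at 492, 661, 453 and 233 against 2277, 2371, 2279 and 2350 RPM. Ly6C hi replicate 4 was lowest for both, and the differences were -2.70 ± 0.37 for Ace (adjusted P = 4.0e-05) and -2.43 ± 0.24 for Adgre4 (adjusted P = 1.7e-06).

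Of 15 classical monocyte genes tested, 12 were higher in Ly6C hi cells and 2 were lower, with a median difference of 2.02 against -0.10 over all genes. F13a1, the A chain of coagulation factor XIII, was at 1644, 1312, 1176 and 969 RPM in Ly6C hi cells and at 4.69, 6.80, 3.71 and 20.6 RPM in Ly6C low cells, a difference of 7.26 ± 0.36. Vcan, the matrix proteoglycan versican, was at 189, 170, 81.7 and 119 RPM against 1.19, 0.800, 0.946 and 1.67 RPM, a difference of 5.98 ± 0.24. In both genes the lowest Ly6C hi library stood more than 20-fold above the highest Ly6C low library. Fn1, which encodes the matrix protein fibronectin (5.47), was higher by a similar amount, Hp (haptoglobin, 2.02) and Plac8 (1.83) by less, and Lyz2 (lysozyme, 1.31) was high in both subsets, at a mean of 29365 RPM in Ly6C hi and 11856 RPM in Ly6C low cells. The 2 lower genes were Cd14, the LPS co-receptor (-0.96), and Clec4e, the mycolate receptor Mincle (-1.14). Cd14 overlapped between the groups, with 22.2 to 29.97 RPM in Ly6C hi and 28.3 to 73.4 RPM in Ly6C low cells.

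Of 24 Ly6C low monocyte genes tested, 23 were lower in Ly6C hi cells and none was higher by limma (median -2.76; none at an unadjusted P below 0.05 and the same fold either), whereas with TMM, RLE or granule-free scaling, or without Ly6C hi replicate 1, Pglyrp1 was called higher. Cd300e, an activating receptor of the CD300 family, was at 17.7, 45.4, 10.7 and 8.74 RPM in Ly6C hi cells and at 1209, 1463, 986 and 1203 RPM in Ly6C low cells, a difference of -6.09 ± 0.36 (adjusted P = 1.5e-08). Nr4a1, the orphan nuclear receptor that Ly6C low monocytes need, was at 421, 579, 361 and 164 RPM against 2129, 2378, 1846 and 1831 RPM, a difference of -2.55 ± 0.29. Every Ly6C hi library thus held at least 164 RPM of Nr4a1 but at most 45.4 RPM of Cd300e. Differences of -4.99 for Dusp16 (a MAP kinase phosphatase), -4.75 for Fabp4 (a fatty acid carrier), -4.34 for Itgax (the integrin CD11c), -3.87 for Cd36 (a scavenger receptor) and -3.51 for Eno3 (the muscle enolase) followed. The exception was Pglyrp1, a peptidoglycan-binding protein also stored in neutrophil granules, at 971, 1050, 1096 and 1557 RPM in Ly6C hi and 741, 878, 775 and 837 RPM in Ly6C low cells (0.51 ± 0.15, adjusted P = 0.010, below the fold threshold). The 10 largest decreases with a mean of at least 10 RPM also took in Pecam1 (the adhesion molecule CD31, -5.28), Pparg (a lipid-activated nuclear receptor, -4.91), Adamdec1 (-5.35), Fcrl5 (-5.23), Adrb1 (the β1-adrenergic receptor, -5.12), Cd5l (-5.03) and Slc4a1 (-4.96). The Fcgr4 start region is shown here because FcγRIV was a marker on which the subsets were separated; capitals mark a PU.1 motif, discussed with the granule genes.

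Fcgr4, chr1:171018676-171018925, plus strand: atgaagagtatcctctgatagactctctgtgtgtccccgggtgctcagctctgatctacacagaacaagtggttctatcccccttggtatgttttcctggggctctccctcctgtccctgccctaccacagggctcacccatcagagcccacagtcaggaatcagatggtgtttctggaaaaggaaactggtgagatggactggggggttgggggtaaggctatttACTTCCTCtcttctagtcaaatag

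**Figure D2:**
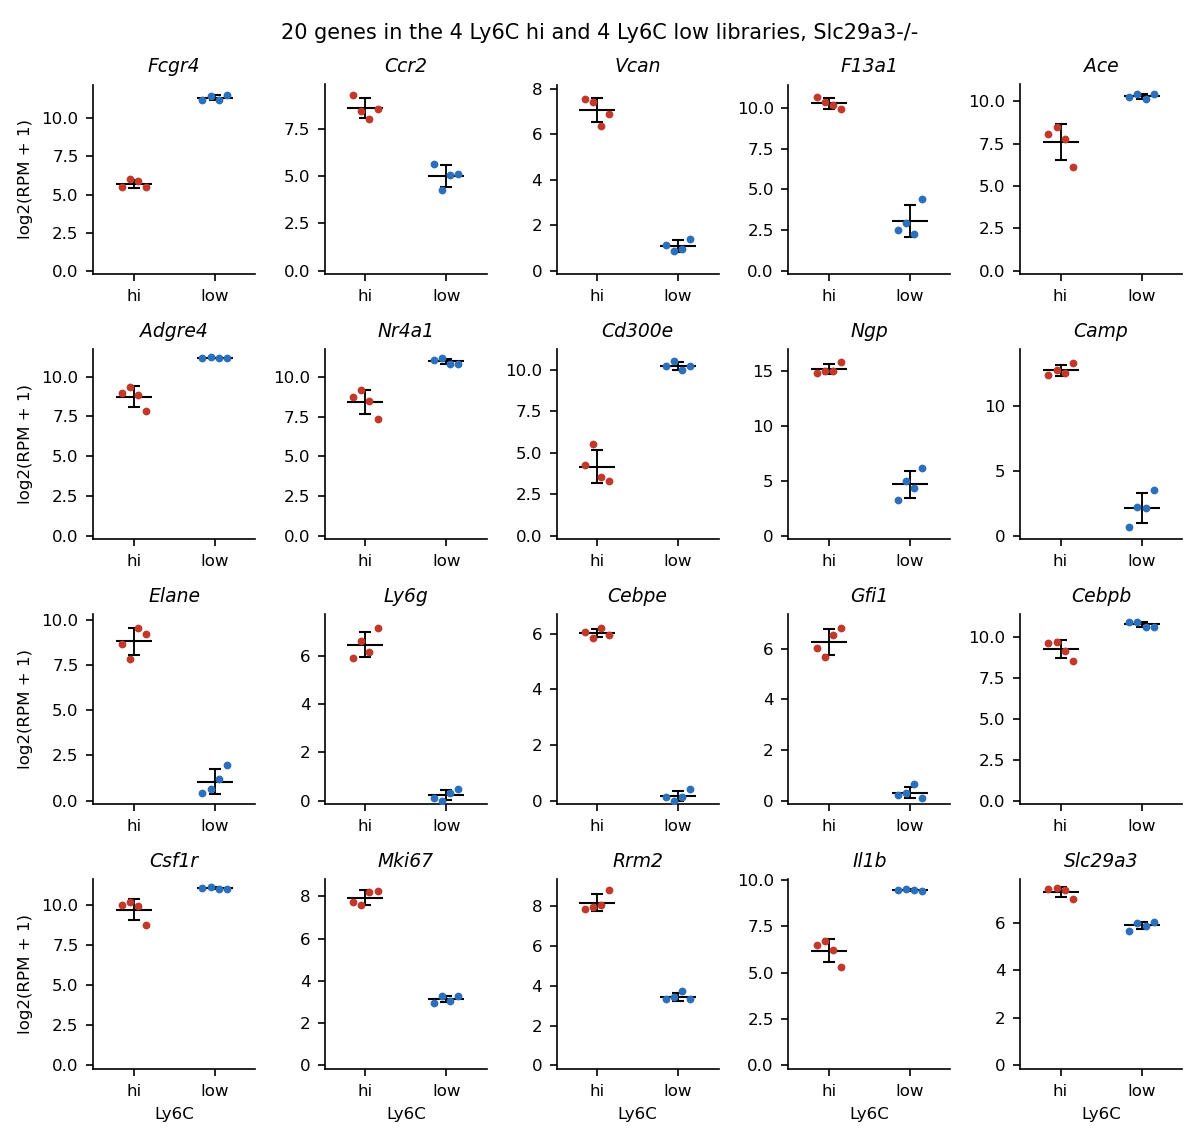
Levels of 20 genes in each library, as log2(RPM + 1) on the y axis, with red points for the 4 Ly6C hi and blue points for the 4 Ly6C low libraries of Slc29a3-/- mice; horizontal lines are means and error bars SD. The subsets do not overlap for any of the 20 genes, and Ly6C hi replicate 4, the rightmost red point, is the lowest for Ace, Adgre4, Nr4a1, Cebpb, Csf1r and Il1b and the highest for Ngp, Camp, Ly6g and Rrm2.

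The largest increases were in genes of neutrophil granules. Secondary (specific) granules are filled at the myelocyte and metamyelocyte stage of neutrophil development, and most of their proteins are made by few other cells. Of 16 genes of the secondary granule and neutrophil list, 15 were higher in Ly6C hi cells and none was lower, with a median difference of 7.89. Ngp (neutrophilic granule protein) was at 29135, 32942, 32876 and 57331 RPM in Ly6C hi cells and at 8.35, 29.4, 19.3 and 70.2 RPM in Ly6C low cells, a difference of 10.50 ± 0.45 (adjusted P = 8.0e-10). Camp, the precursor of the antimicrobial peptide cathelicidin, was at 5234, 7111, 5793 and 10101 RPM against 0.557, 3.60, 3.31 and 10.2 RPM (10.63 ± 0.43). Ltf (lactoferrin) was at 4254, 4871, 5026 and 7073 RPM against 0.716, 3.68, 3.71 and 8.10 RPM (10.24 ± 0.37). For these 3 genes replicate 4 was the highest library of both subsets.

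Nearly as large were the differences of S100a9 (9.997) and S100a8 (9.98), whose products form calprotectin and are also made by Ly6C hi monocytes, of Lcn2 (the siderophore-binding lipocalin 2, 9.95), Wfdc21 (9.52), Fcnb (ficolin B, 9.37) and Itgb2l (a β2-like integrin, 8.56). Lower down were Cd177 (7.22), Ly6g (6.23), Mmp8 (neutrophil collagenase, 5.27), Padi4 (which citrullinates histones, 4.73), Mmp9 (gelatinase B, 4.46), Retnlg (4.07) and Cxcr2 (3.55). Csf3r, the receptor for G-CSF, was the gene that did not pass, at 157, 167, 211 and 136 RPM in Ly6C hi and 121, 167, 108 and 134 RPM in Ly6C low cells (0.34 ± 0.16, adjusted P = 0.085). Camp (chr9:109847379-109849617), Ngp (chr9:110419747-110423012) and Ltf (chr9:111019271-111042767) lie near each other on chromosome 9 of mm10, and S100a8 (chr3:90668978-90670035) and S100a9 (chr3:90692632-90695721) are neighbours on chromosome 3.

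Cells with surface Ly6G had been removed, yet the Ly6g transcript was at 59.2, 96.9, 70.8 and 139 RPM in Ly6C hi cells and at 0.080, 0, 0.237 and 0.397 RPM in Ly6C low cells. Summed over the list, secondary granule and neutrophil genes made up 79567, 92235, 86774 and 146398 RPM of the Ly6C hi libraries, or 7.96 to 14.6% of their reads, and 161, 261, 194 and 344 RPM of the Ly6C low libraries. The sum thus differed by more than 200-fold between the lowest Ly6C hi and the highest Ly6C low library. The part that neutrophils or their precursors inside the gate had in these values was not tested.

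Primary (azurophil) granules are filled earlier, at the promyelocyte stage, which granulocyte and monocyte precursors share in part. Of 18 genes of the primary granule and progenitor list, 15 were higher in Ly6C hi cells and none was lower (median 3.51). Elane (neutrophil elastase) was at 400, 225, 734 and 578 RPM in Ly6C hi cells and at 0.318, 0.560, 1.26 and 2.86 RPM in Ly6C low cells (7.75 ± 0.36, adjusted P = 1.7e-09). Its neighbour on chromosome 10, Prtn3 (proteinase 3), was at 649, 370, 1256 and 1046 RPM against 0.795, 2.56, 2.60 and 6.43 RPM (7.70 ± 0.41). Both were lowest in Ly6C hi replicate 2 and highest in replicate 3, unlike Ngp, Camp and Ltf, which were highest in replicate 4. Ms4a3 (7.11), which marks granulocyte-monocyte progenitors, Ctsg (cathepsin G, 6.25), Serpinb1a (an inhibitor of these proteases, 5.51), Prss57 (5.26) and Mpo (myeloperoxidase, 3.46) were higher too, as were the receptor tyrosine kinases Kit (2.59) and Flt3 (1.20). Cd34, Sox4 and Igsf6 did not pass, with differences of 0.47, 0.08 and 0.23. The sums of the list were 3317, 2250, 4657 and 4982 RPM in Ly6C hi and 659 to 755 RPM in Ly6C low cells.

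The start regions of Elane and Prtn3 are shown because these neighbouring protease genes had nearly equal differences. They are the 250 bases before the RefSeq start, on GRCm38.p6, written 5′ to 3′ along the gene, and capitals mark the letters GAGGAAGT, a motif of PU.1, the ETS factor of the myeloid lineage, on either strand.

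Elane, chr10:79886062-79886311, plus strand: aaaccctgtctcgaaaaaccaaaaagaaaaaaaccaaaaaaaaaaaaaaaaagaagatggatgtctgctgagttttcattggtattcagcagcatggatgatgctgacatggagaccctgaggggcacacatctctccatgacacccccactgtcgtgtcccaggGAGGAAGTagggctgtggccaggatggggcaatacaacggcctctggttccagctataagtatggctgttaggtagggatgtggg

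Prtn3, chr10:79879417-79879666, plus strand: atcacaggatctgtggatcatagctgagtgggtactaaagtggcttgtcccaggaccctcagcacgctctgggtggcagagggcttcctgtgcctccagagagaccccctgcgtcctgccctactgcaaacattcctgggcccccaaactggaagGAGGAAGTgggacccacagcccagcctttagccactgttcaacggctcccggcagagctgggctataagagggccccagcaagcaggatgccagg

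The motif began 85 bases before the start of Elane, 95 before that of Prtn3 and 24 before that of Fcgr4, where it lies on the other strand. It was found in 3 of 15 windows of the primary granule list (Mpo, Elane and Prtn3), in 4 of 14 of the secondary granule list (28.6%: Mmp8, Ly6g, S100a8 and Itgb2l) and in 2 of 20 of the Ly6C low list (Fcgr4 and Cd300ld). For comparison, 2.44% of all 27025 RefSeq windows and 2.85% of the 8147 windows of genes tested held it. Of the windows of all genes called higher in Ly6C hi cells 2.75% held it, and of those called lower 3.77%. A C/EBP palindrome, TTGCGCAA, was in 1 window of the primary list and in none of the secondary list, against 0.170% of all windows. These matches are a description of the letters and not evidence of binding.

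Genes of the cell cycle formed the second group of large increases. Cells copy their DNA in S phase under the control of E2F factors and divide after the G2 and M phases, when kinesins, the mitotic kinases and the anaphase-promoting complex act. Of 51 G2 and M phase genes tested, 45 were higher in Ly6C hi cells and 1 was lower (median 3.65), and of 40 S phase genes 33 were higher and 1 was lower (median 1.87). Mki67, the proliferation antigen Ki-67, was at 212, 190, 299 and 304 RPM in Ly6C hi cells and at 6.84, 8.80, 7.41 and 8.66 RPM in Ly6C low cells, a difference of 4.80 ± 0.17 (adjusted P = 1.6e-10). Cdk1, the kinase that drives mitosis, was at 185, 153, 252 and 262 RPM against 6.36, 9.44, 8.04 and 8.98 RPM (4.52 ± 0.18). Rrm2, which makes deoxynucleotides, was at 232, 243, 266 and 440 RPM against 8.90, 9.68, 12.2 and 8.90 RPM (4.72 ± 0.19). Ly6C hi replicates 3 and 4 were above replicates 1 and 2 in each, and Ly6C low libraries were close together.

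Birc5 (survivin, 4.98), Uhrf1 (which maintains DNA methylation, 4.74), Ube2c (the E2 enzyme of the anaphase-promoting complex, 4.73), Kif11 (the kinesin Eg5, 4.71) and Kif2c (4.66) gave the same picture. The exceptions were Hn1, also known as Jpt1, lower by 1.22, and Polr1b, a subunit of RNA polymerase I, lower by 0.96. Summed over the lists, Ly6C hi libraries held 5040 to 7497 RPM of G2 and M phase and 2520 to 4358 RPM of S phase genes, and Ly6C low libraries 1697 to 1752 and 722 to 768 RPM. Of 21 histone genes tested, 18 were higher and none was lower (median 3.03), among them Hist1h1b, a linker histone, at 1133, 1085, 1988 and 1903 RPM against 35.6, 47.6, 56.2 and 77.1 RPM (4.79 ± 0.24), and Hist1h2bb (4.04). Most of these histone genes are near-identical copies of each other on chromosome 13, so that reads of one amplicon may belong to another, and single histone values are uncertain. Their sums were 10992 to 17586 RPM in Ly6C hi and 1169 to 1493 RPM in Ly6C low cells.

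Among 29 cyclins, cyclin-dependent kinases, their inhibitors and E2F factors, 18 were higher and 5 lower (median 1.10). Higher were the cyclins of S phase and mitosis, Ccna2 (4.78), Ccnb2 (4.61), Ccne2 (4.43) and Ccnf (4.83), and the late E2F repressors E2f8 (5.23) and E2f7 (4.68). E2f8 was at 134, 151, 186 and 214 RPM in Ly6C hi cells and at 2.46, 3.04, 5.84 and 3.34 RPM in Ly6C low cells. The 5 lower genes were the inhibitors Cdkn1b (p27, -1.71) and Cdkn1c (p57, -1.56), the D cyclins Ccnd2 (-1.44) and Ccnd1 (-0.88), and the retinoblastoma gene Rb1 (-1.02). Cdkn1b was at 35.7, 29.1, 37.6 and 23.6 RPM in Ly6C hi cells and at 113, 94.2, 103 and 105 RPM in Ly6C low cells, with no overlap.

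The start regions of Mki67, Ube2c and Kif11 are shown as examples of the G2 and M phase genes that were higher together. Genes of this phase are known for CCAAT boxes, bound by NF-Y, and for a cell cycle homology region, CHR, with the letters TTTGAA, bound by the DREAM and MuvB complexes. Capitals mark both on either strand in the 250 bases before the RefSeq start.

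Mki67, chr7:135716380-135716629, minus strand: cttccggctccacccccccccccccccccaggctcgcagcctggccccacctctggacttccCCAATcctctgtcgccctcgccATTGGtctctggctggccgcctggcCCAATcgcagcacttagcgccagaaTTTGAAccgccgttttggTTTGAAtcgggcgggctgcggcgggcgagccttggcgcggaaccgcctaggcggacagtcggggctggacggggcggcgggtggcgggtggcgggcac

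Ube2c, chr2:164769679-164769928, plus strand: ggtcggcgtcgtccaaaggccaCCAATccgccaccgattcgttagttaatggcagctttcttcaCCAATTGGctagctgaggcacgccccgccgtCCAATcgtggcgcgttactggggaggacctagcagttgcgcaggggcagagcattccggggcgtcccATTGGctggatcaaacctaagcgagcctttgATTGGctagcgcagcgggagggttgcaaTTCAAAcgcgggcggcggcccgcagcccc

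Kif11, chr19:37376132-37376381, plus strand: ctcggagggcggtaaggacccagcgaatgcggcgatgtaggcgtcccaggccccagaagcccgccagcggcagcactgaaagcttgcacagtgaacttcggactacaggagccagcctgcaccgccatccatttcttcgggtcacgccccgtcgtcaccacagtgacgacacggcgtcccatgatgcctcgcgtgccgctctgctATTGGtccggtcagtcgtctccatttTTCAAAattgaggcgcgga

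Mki67 held CHR letters beginning 116 and 98 bases before its start and CCAAT boxes at 188, 166 and 141. Ube2c held a CHR at 29 and CCAAT boxes at 228, 186, 183, 155, 88 and 57 bases, of which those at 186 and 183 overlap on opposite strands. Kif11 held a CHR at 19 and a CCAAT box at 45 bases. Of the 44 windows found for the 51 G2 and M phase genes, 18 held a CHR (40.9%) and 33 a CCAAT box (75.0%), against 10.7% and 36.8% of the windows of all genes tested and 16.3% and 34.5% of all RefSeq windows. For the S phase list a window was found for 29 of 40 genes (72.5%). That share was lower than for the granule, Ly6C low and G2 and M phase lists, and no share of motifs is given here.

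Of 26 transcription factors of myeloid fate, 7 were higher in Ly6C hi cells and 10 lower (median -0.27). Cebpe, which is required for secondary granules, was at 65.4, 56.3, 71.8 and 60.6 RPM in Ly6C hi cells and at 0.080, 0, 0.079 and 0.318 RPM in Ly6C low cells (5.85 ± 0.17, adjusted P = 3.8e-11). Gfi1, a repressor that favours granulocytes over monocytes, was at 64.1, 49.6, 91.7 and 111 RPM against 0.159, 0.240, 0.552 and 0.079 RPM (5.94 ± 0.24). Both were at or near the detection limit in every Ly6C low library. Myb, a factor of cycling progenitors (3.57), Myc (1.53), Cebpa (0.96), Runx3 (0.94) and Cebpd (0.66) were also higher.

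The factors known from Ly6C low monocytes went the other way. Cebpb, which Ly6C low monocytes need, was at 787, 811, 556 and 367 RPM in Ly6C hi cells and at 1918, 1873, 1555 and 1549 RPM in Ly6C low cells (-1.51 ± 0.21, adjusted P = 5.6e-05). Hes1 (a Notch target, -2.81), Pou2f2 (OCT2, -2.38), Klf4 (-1.83), Bcl6 (-1.64), Klf2 (-1.49) and Notch2 (-1.02) were lower as well, as were Id3 (-2.09) and Spic (-1.87). Irf8, which directs monocyte and dendritic fate, was at 323, 231, 233 and 179 RPM against 221, 200, 214 and 240 RPM, and Spi1, which encodes PU.1, at 875 to 989 RPM against 1281 to 1370 RPM. Irf8 overlapped between the groups (0.11 ± 0.15, adjusted P = 0.56), and Spi1 stayed under the fold threshold (-0.53 ± 0.10).

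Receptors for chemoattractants were split, with 7 of 18 higher and 8 lower (median 0.08). Ccr1, a receptor for inflammatory CC chemokines, was at 31.7, 25.3, 37.5 and 53.0 RPM in Ly6C hi cells and at 0.875, 0.320, 0.237 and 0.794 RPM in Ly6C low cells (4.58 ± 0.24), and Cmklr1 (3.06), Ltb4r1 (a leukotriene receptor, 2.89) and Gpr183 (1.45) were higher with it. Lower were Cxcr4 (marrow retention, -1.14), Cx3cr1 (the fractalkine receptor, -1.19), Fpr1 (-3.11), S1pr5 (a sphingosine receptor for egress, -2.31) and Ccr7 (-2.15), along with Ccrl2, C3ar1 and S1pr1. Cx3cr1 was at 134, 114, 84.4 and 41.0 RPM against 210, 207, 189 and 178 RPM, without overlap. Of 9 chemokine genes tested, Cxcl10 (3.08), Cxcl9 (1.57) and Ppbp (0.65) were higher and Ccl3 (-2.30) was lower (median 0.26).

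Adhesion molecules were mostly lower in Ly6C hi cells, 14 of 23 against 4 higher (median -1.02). Itgal, the α chain of LFA-1 used for patrolling, was at 1582, 1855, 1441 and 893 RPM in Ly6C hi and 5115, 5897, 4156 and 5017 RPM in Ly6C low cells (-1.84 ± 0.21), and its partner Itgb2 was lower by 1.02 (adjusted P = 4.4e-05). Among the 4 higher genes were Itga1 (a collagen receptor chain, 3.39), Itga6 (2.52) and Itga5 (1.16). Among 23 genes of the list of receptors for growth factors and cytokines, 10 were lower and 5 higher (median -0.50). Csf1r, the M-CSF receptor on which monocytes depend, was at 997, 1141, 973 and 436 RPM against 2073, 2248, 2048 and 2045 RPM (-1.33 ± 0.24, adjusted P = 0.00040). Ly6C hi replicate 4 was lowest again, and the groups did not overlap. Il10ra (-1.94), Tgfbr1 (-2.27) and Tgfbr2 (-1.92) were lower. Kit, Flt3, Il1r2 (a decoy receptor for IL-1, 4.83), Csf2rb2 (1.39) and Il1rn (the IL-1 receptor antagonist, not itself a receptor, 1.10) were higher.

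Fc receptors and receptors that signal through immunoreceptor tyrosine-based activation motifs (ITAM) were lower for 12 and higher for 5 of 22 genes (median -0.82). Fcer1g, which encodes the adaptor FcRγ, was at 2213, 2110, 2102 and 1765 RPM in Ly6C hi cells and at 4421, 4907, 4938 and 4895 RPM in Ly6C low cells (-1.23 ± 0.13, adjusted P = 3.9e-06). Tyrobp (the adaptor DAP12) was at 1525, 1589, 1382 and 985 RPM against 1824, 1844, 1777 and 1590 RPM and did not pass (-0.38 ± 0.15, adjusted P = 0.050). Hcst (the adaptor DAP10) was at 72.4, 62.0, 58.0 and 88.8 RPM against 72.2, 61.0, 80.8 and 72.8 RPM (-0.04 ± 0.15, adjusted P = 0.83), and its sign turned with TMM, RLE or granule-free scaling. Of the 3 adaptors, then, FcRγ differed beyond the spread between libraries and the others overlapped or missed the threshold. Cd300ld (-3.82), Treml4 (-2.98), Fcgrt (the neonatal Fc receptor, -2.73) and Syk (the kinase that binds ITAM, -0.59) were lower, whereas Clec5a, a DAP12-coupled receptor, was at 73.2 to 107 RPM against 0 to 0.240 RPM (6.22 ± 0.18), and Treml2 (4.93), Trem2 (2.53), Siglech (1.01) and Fcgr1 (0.82) were higher.

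Of 35 genes of Toll-like receptors (TLR) and nucleic acid sensing, 15 were lower in Ly6C hi cells and 4 higher (median -0.47). Tlr7 was at 227, 199, 181 and 111 RPM in Ly6C hi cells and at 411, 391, 403 and 400 RPM in Ly6C low cells (-1.20 ± 0.18, adjusted P = 7.5e-05). Tlr8 (-1.68) and Tlr13 (-1.49), which also sense RNA, and the endosomal peptide and histidine carriers Slc15a3 (-1.16) and Slc15a4 (-1.06) were lower too. For each of these the subsets did not overlap. Tlr9, the DNA sensor, was at 120, 164, 94.4 and 80.6 RPM against 82.8, 71.0, 73.0 and 81.0 RPM and did not pass (0.52 ± 0.18), although it did with TMM, RLE or granule-free scaling and without Ly6C hi replicate 3 or 4. The 4 higher genes were Tlr5, the flagellin receptor (1.73), Tlr11 (0.94), Tirap (0.65) and Ly86 (0.59), and Cd180, the partner of LY86, was lower (-2.35).

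The amplicon of the mutated gene itself, Slc29a3 (chr10:60712072-60752794 of mm10), was at 167, 173, 162 and 127 RPM in Ly6C hi cells and at 49.9, 61.4, 57.4 and 64.3 RPM in Ly6C low cells (1.41 ± 0.13, adjusted P = 8.8e-07). Its place relative to the introduced stop codon is not given, so its RNA level does not check the genotype. Of 15 genes of nucleoside transport and salvage, 8 were higher and 1 lower (median 0.82). Ada (adenosine deaminase) was at 46.7, 52.7, 79.9 and 111 RPM against 2.94, 2.48, 2.997 and 4.61 RPM (4.05 ± 0.25), and Tk1 (thymidine kinase, 3.66), Uck2 (uridine-cytidine kinase, 2.41), Aprt (adenine salvage, 2.39), Dck (deoxycytidine kinase, 1.56), Slc28a2 (a concentrative nucleoside carrier, 1.55) and Gda (guanine deaminase, 0.82) were higher with Slc29a3. The lower gene was Slc29a1, the nucleoside carrier ENT1 of the plasma membrane, at 6.83 to 14.3 RPM against 55.6 to 88.6 RPM (-2.53 ± 0.21).

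Lists of genes known from macrophages moved in both directions. Of 19 scavenger and efferocytosis genes, 8 were lower and 4 higher (median -0.48), and of 28 lipid and cholesterol genes 12 were lower and 3 higher (median -0.07, which turned to 0.01 with RLE and 0.08 with granule-free scaling). Tgm2 (transglutaminase 2) was at 23.6 to 32.6 RPM in Ly6C hi and 561 to 767 RPM in Ly6C low cells (-4.48 ± 0.13), and the cholesterol exporter Abca1 (-2.61), Apoe (-2.37) and their regulator Nr1h3 (LXRα, -1.95) were lower, while Fdft1 and Sc5d of sterol synthesis were higher by 1.04 and 0.90. Msr1 (2.68), Siglec1 (2.87), Clec7a (1.68) and Cd163 (0.92) were the higher scavenger and uptake receptors. Of 11 complement genes, 5 were lower, including C1qb (-4.14), and 1 was higher, C3, the central component, at 3404, 2845, 2761 and 5151 RPM against 670, 715, 896 and 872 RPM (2.13 ± 0.19; median of the list -0.35). Of 15 iron and heme genes, 8 were lower and 3 higher (median -0.83), the lower ones including Slc11a1 (the phagosomal metal carrier NRAMP1, -2.06) and Hmox1 (heme oxygenase 1, -0.96).

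Lysosomal genes moved both ways, with 17 of 45 lower and 9 higher (median -0.05). With granule-free scaling, 14 were higher and 13 lower and the median was 0.11, so no direction can be given for the list. Within it, Ctsb (cathepsin B, -1.48) and Acp5 (acid phosphatase 5, -3.76) were lower, and Cd63, a membrane protein of late endosomes and of azurophil granules, was at 226 to 560 RPM against 9.62 to 19.6 RPM (4.38 ± 0.25). Of 11 genes of the Bcl2 family, 4 were lower and 1 higher (median -0.14, or 0.01 with granule-free scaling): Bcl2 (-2.32), which blocks apoptosis, Bmf (-1.46), Bbc3 (PUMA, -1.24) and Pmaip1 (NOXA, -0.96), which promote it, and the higher Bad (1.09).

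Inflammatory cytokines and NF-κB genes were lower for 8 and higher for 2 of 15 (median -0.78). Il1b was at 88.9, 106, 74.8 and 38.6 RPM in Ly6C hi cells and at 699, 746, 716 and 683 RPM in Ly6C low cells (-3.28 ± 0.23, adjusted P = 7.7e-08). Il10 (-2.59), Rel (-1.55), Il12b (-1.50) and Tnfaip3 (-1.40) were lower, and Tnfsf13b (BAFF, 1.09) and Il18 (0.86) were higher. Of 16 immediate early genes, 11 were lower and Fos was higher (median -0.76). Jun (-1.96), Dusp1 (-1.96) and Fos (0.79) lost their calls when all 24 libraries shared 1 estimate of the spread (adjusted P of 0.139, 0.120 and 0.607). The list summed to 1394 to 2163 RPM in Ly6C hi and 4168 to 4933 RPM in Ly6C low cells of Slc29a3-/- mice, but to 16400 to 22189 RPM in both subsets of WT replicates 1 to 3. WT replicate 4 was near the Slc29a3-/- libraries, at 2739 RPM in Ly6C hi and 3858 RPM in Ly6C low cells, and the double mutants were at 2521 to 11016 RPM.

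Interferon-stimulated genes were higher for 17 and lower for 2 of 31 (median 0.60). Siglec1 (sialoadhesin) was at 19.9 to 42.0 RPM in Ly6C hi and 1.92 to 5.09 RPM in Ly6C low cells (2.87), and Cxcl10, Usp18 (which dampens interferon receptor signals, 1.83), Ifit2 (1.69) and Ifi44 (1.60) were higher. The lower genes were Gbp2 (-1.13) and Zbp1 (-0.62). Gbp2 overlapped between the groups and lost its call without Ly6C hi replicate 2 or 3 or Ly6C low replicate 1, 3 or 4 (adjusted P of 0.052 to 0.0852), with granule-free scaling, with no filter and with all 24 libraries in the fit (adjusted P = 0.201). TMM scaling gave 21 higher and 1 lower and granule-free scaling 23 higher and none lower. Ly6C hi replicate 4 had the lowest sum of the list, 2125 RPM, inside the range of 1887 to 2291 RPM of the Ly6C low libraries, while the other 3 had 3176 to 3568 RPM.

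Of 14 genes of MHC class II and costimulation, 8 were higher and 4 lower (median 0.68). The regulator Ciita (1.40), H2-DMa (1.41), H2-DMb1 (1.43) and Cd40 (1.46) led the higher ones. H2-Aa (0.70) overlapped between the groups, and without Ly6C hi replicate 2 both it and Cd74 (0.67) fell under the fold threshold, at 0.57 and 0.56, as Cd74 did without Ly6C low replicate 2 (0.52). The peptide-loading inhibitors H2-Oa (-1.16) and H2-Ob (-1.99), the protease Ctss (-0.68) and Cd86 (-1.06) were lower. Of 21 glycolysis and pentose phosphate genes, 10 were higher and 4 lower (median 0.51): the glucose transporter Slc2a3 was at 121 to 214 RPM against 6.92 to 11.7 RPM (3.87 ± 0.19), and Ldhb (3.49), Gpi1 (1.43) and Pkm (1.09) were higher, whereas Pfkfb3 (-1.37), Eno3 (-3.51), Pfkl (-0.75) and Slc2a1 (-0.62) were lower. Of 17 ribosomal protein genes, which served as a reference, 2 were higher (Rps4l and Rpl32), 1 lower (Rpl3l) and 14 did not pass (median 0.05).

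**Figure D3:**
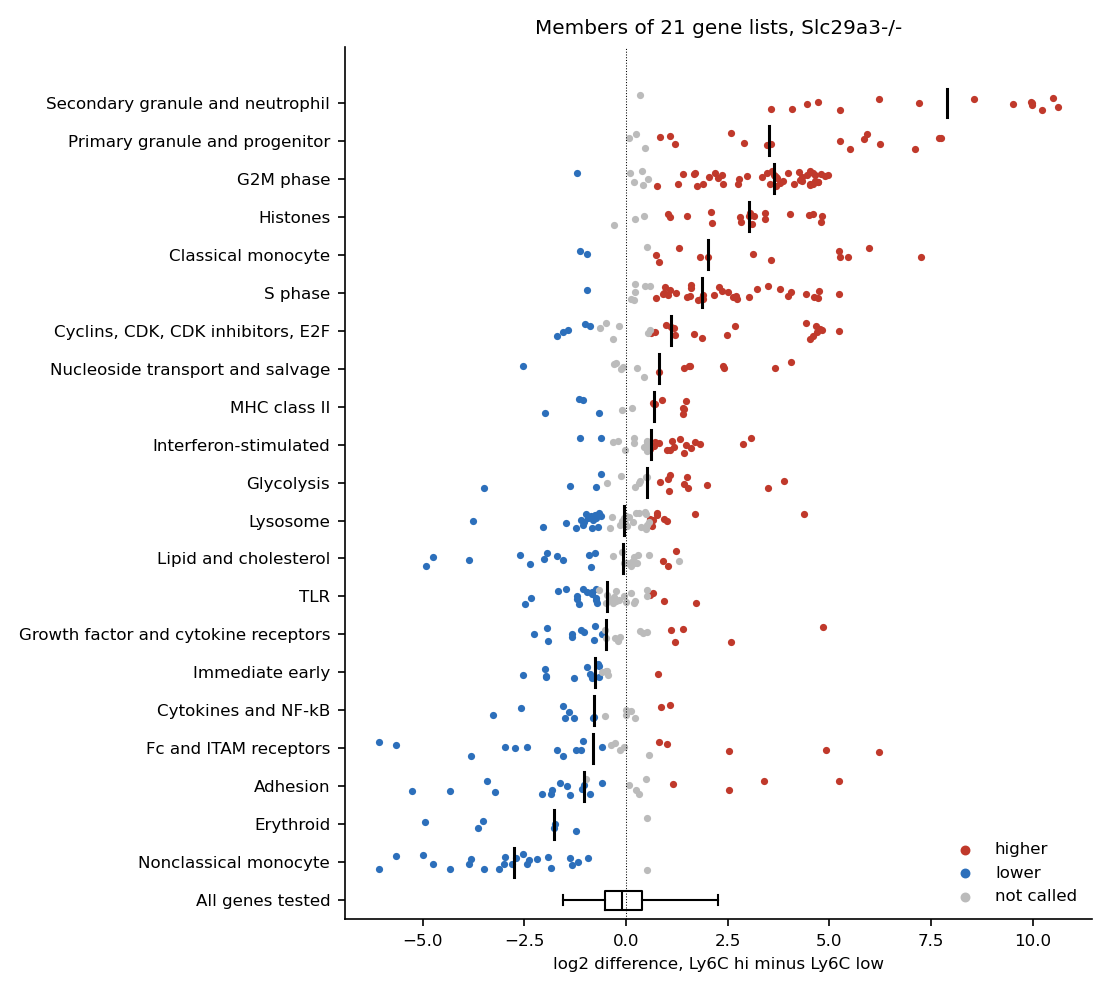
Differences between Ly6C hi and Ly6C low monocytes of Slc29a3-/- mice (x axis, log2) for the tested members of 21 gene lists (y axis), 1 point per gene, red if called higher, blue if lower and grey if not called; black bars are list medians and the box at the bottom gives the median and quartiles of all 10137 genes tested with whiskers from the 5th to the 95th percentile. Medians run from 7.89 for the secondary granule list to -2.76 for the Ly6C low monocyte list, around -0.10 for all genes.

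Markers of other cell types that the sorted fractions could hold were mostly low. Erythroid genes were lower in Ly6C hi cells for 6 of 7 genes tested and higher for none (median -1.76), with sums of 16.1 to 28.3 RPM in Ly6C hi and 111 to 147 RPM in Ly6C low cells; globin genes were not analysed here. Slc4a1, the anion exchanger band 3 of red cells, was at 0.395 to 1.75 RPM in Ly6C hi and 45.7 to 63.9 RPM in Ly6C low cells (-4.96 ± 0.23). The 3 B cell genes tested were lower (Cd22 -3.59, Cd79b -1.39 and Bank1 -0.70), and 1 of 7 T cell genes was, Cd4 (-0.67). Red pulp macrophage genes were lower for 4 of 8 and higher for 1 (median -0.97), with sums of 355 to 488 RPM in Ly6C hi and 824 to 1186 RPM in Ly6C low cells; the lower ones were Cd5l, Adgre1 (F4/80, -2.30), Spic and Hmox1. None of 6 NK cell genes (median 0.49) and none of 4 plasma cell genes (median -0.27) was called by limma, also at an unadjusted P below 0.05, and Jchain, an immunoglobulin chain, ranged from 63.0 to 223 RPM in Ly6C hi and 53.8 to 398 RPM in Ly6C low cells. Of 8 conventional dendritic cell genes, 3 were higher (Clec10a 2.32, Cd209a 1.23 and Flt3) and 3 lower (Ccr7, Xcr1 -1.62 and Zbtb46 -0.83), and of 4 plasmacytoid genes Siglech was higher and Cox6a2 (-1.76) lower. Of 5 platelet genes, Gp1bb (1.63) and Ppbp were higher and none was lower, and of 4 eosinophil and basophil genes Siglecf (3.33) and Ms4a2 (0.95) were higher and Mcpt8 (-0.82) lower. Siglecf was at 13.5, 5.46, 15.1 and 13.7 RPM in Ly6C hi and 0.159 to 0.315 RPM in Ly6C low cells, although the labels give the cells as lacking Siglec-F. The part of these cell types in the differences above was not tested.

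The difference between the subsets was then compared with that in WT spleen, to see where loss of SLC29A3 went with a different contrast. In 1 fit of all 24 libraries and 11042 genes, Slc29a3-/- cells had 1827 genes higher (16.5%) and 2042 lower (18.5%) in Ly6C hi cells, and WT cells 1929 (17.5%) and 934 (8.46%). The differences of the genotypes correlated across genes (r = 0.81, n = 11042 genes, which are not independent replicates) and had an SD of 1.20 in Slc29a3-/- and 0.87 in WT cells. Of the genes higher in Slc29a3-/- Ly6C hi cells, 67.8% were also called higher in WT cells, and of those higher in WT cells 64.2% were higher in Slc29a3-/- cells. For lower genes the shares were 36.6% and 80.0%. Opposite calls were made for 21 genes.

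The difference of the differences was tested as an interaction. It was positive for 454 genes (4.11%) and negative for 513 (4.65%), or for 877 (7.94%) and 1356 (12.3%) at an unadjusted P, with a median of -0.15 over all genes; with TMM scaling the numbers were 651 and 365 and the median 0.01. WT replicates 1 to 3, with barcodes 11 to 16, stood apart from WT replicate 4: in Ly6C hi cells the SD of the log2 ratio between 2 of them was 0.231 to 0.242 and to replicate 4 it was 0.630 to 0.641, whereas between Ly6C hi libraries of Slc29a3-/- mice it was 0.392 to 0.563. In Ly6C low cells it was 0.275 to 0.445 between WT replicates 1 to 3 and 0.635 to 0.753 to replicate 4. Between Ly6C low libraries of Slc29a3-/- mice it was 0.313 to 0.412. In Ly6C hi cells every pair of WT replicates 1 to 3 was thus closer than any Slc29a3-/- pair. In Ly6C low cells only WT replicates 1 and 3 were (0.275). The inferred depth of WT replicates 1 to 3 was 14237183 to 14572242 reads over both subsets, against 12820513 and 13048390 reads in replicate 4. WT replicates 1 to 3 still differed by more than counting noise in both subsets. That does not show whether they came from separate animals, which was not tested. They were kept as 3. When WT replicates 1 to 3 were averaged into 1 sample, an alternative chosen after seeing the data, 168 genes were positive and 92 negative, and with WT replicate 4 as the only WT pair 17 of 10796 (0.157%) and 6 (0.0556%). The fit with WT replicate 4 alone held 1 library in each WT group, so a call lost there does not by itself show a smaller difference. Without Ly6C hi replicate 4 of Slc29a3-/- mice, 332 were negative, and without WT Ly6C low replicate 4, 771.

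Granule genes led the positive interactions. Of 16 secondary granule genes, 13 were positive and none negative (median 3.57), and S100a9 (4.97 ± 1.12, adjusted P = 0.0057), Ltf (4.91 ± 1.08), Camp (4.86 ± 1.10), Wfdc21 (4.82 ± 0.70) and S100a8 (4.62 ± 1.09) had the largest values. In WT cells these genes also differed between the subsets, for example by 5.77 for Camp and 5.97 for Ngp, against 10.63 and 10.50 in Slc29a3-/- cells. The sums of the list behind this were 26064 to 35110 RPM in WT Ly6C hi cells and 1443, 2693, 1256 and 261 RPM in WT Ly6C low replicates 1 to 4. With WT replicate 4 alone, the 5 named interactions were 1.57 to 2.38 and none passed, and with WT replicates 1 to 3 averaged 2 of the 16 genes passed.

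Primary granule genes were positive for 11 of 18 (median 1.62), and cell cycle genes for 19 of 40 in S phase (median 1.20), 21 of 51 in G2 and M phase (median 1.28) and 12 of 22 histones (median 1.49), with none negative. With WT replicate 4 as the only WT pair, the median of the primary granule list was 1.325. In that fit the medians of S phase, G2 and M phase and histone genes were 1.515, 1.519 and 1.672. Without Ly6C hi replicate 4 of Slc29a3-/- mice the S phase count was 12. The sums in Ly6C hi cells were 1084 to 1558 RPM in WT and 2520 to 4358 RPM in Slc29a3-/- cells for S phase, and 2711 to 3726 and 5040 to 7497 RPM for G2 and M phase, without overlap, while the Ly6C low sums of the genotypes overlapped. Hist1h1b (2.64 ± 0.34), Clec5a (2.50 ± 0.24), Gfi1 (2.75 ± 0.34), Cebpe (2.29 ± 0.37) and Uhrf1 (2.01 ± 0.34) were among the positive genes; Mki67 (1.12 ± 0.39, adjusted P = 0.074) was not called.

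The most negative interactions with a mean of at least 10 RPM were those of Slc4a1 (-5.50 ± 0.52, adjusted P = 7.4e-07), Cd72 (-4.59 ± 0.68), Cadm1 (-4.34 ± 0.47), Cd5l (-4.29 ± 0.76) and Jchain (-3.99 ± 0.94). Erythroid genes were negative for 6 of 7 (median -2.16): their sums were 126 to 130 RPM in WT Ly6C hi replicates 1 to 3, 34.2 RPM in replicate 4 and 16.1 to 28.3 RPM in Slc29a3-/- Ly6C hi cells, and 47.1 to 111 RPM in WT and 111 to 147 RPM in Slc29a3-/- Ly6C low cells. With WT replicate 4 as the only WT pair, the median was -1.30. Pecam1 (-2.42 ± 0.29), Il1b (-2.41 ± 0.59), Acp5 (-1.71 ± 0.27), Fcgrt (-1.41 ± 0.27), Itgax (-1.40 ± 0.34), Tlr8 (-1.25 ± 0.39), Il10ra (-1.24 ± 0.32), Fcgr4 (-1.22 ± 0.23) and Irf8 (-1.20 ± 0.35) were called negative. These calls were made with WT replicates 1 to 3 kept as 3. Irf8 was higher in WT Ly6C hi cells by 1.31, against 0.11 in Slc29a3-/- cells. Markers of other cells moved with this comparison, with negative interactions for 5 of 8 T cell genes, 4 of 6 plasmacytoid genes and 4 of 5 plasma cell genes. The medians of these lists were -2.258, -1.852 and -1.567. With WT replicate 4 as the only WT pair they were -0.515, -1.244 and -0.823. The T cell sums were 67.9 to 233 RPM in WT Ly6C hi cells and 12.6 to 22.5 RPM in Slc29a3-/- Ly6C hi cells, and the NK cell sums 124 to 522 and 23.8 to 49.5 RPM, with WT replicate 4 the lowest of the WT libraries in both. Their part in the interactions was not tested.

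Set against Slc29a3-/- Tlr7-/- cells, the interaction was positive for 500 genes (4.53%) and negative for 487 (4.41%; median -0.20), for 891 (8.07%) and 1607 (14.6%) at an unadjusted P, or for 706 and 275 with TMM scaling (median -0.01). Within the double mutants, 2063 genes were higher (18.7%) and 1064 lower (9.64%) in Ly6C hi cells, and their differences correlated with those of Slc29a3-/- cells across genes at r = 0.82. Of the genes higher in Slc29a3-/- Ly6C hi cells 67.0% were also higher in the double mutants, and of the lower ones 40.2%. Single libraries moved these counts: without Slc29a3-/- Ly6C hi replicate 4, 327 were positive and 245 negative, and the negative count was 302 without Slc29a3-/- Ly6C low replicate 3, 270 without Ly6C low replicate 4 and 301 without double mutant Ly6C hi replicate 3. The last is 1 of the 3 libraries with RNA of both sexes, and without the other 2, replicate 2 of Ly6C hi or Ly6C low cells, the counts were 459 and 647 or 512 and 709. Sex differed in its make-up between Slc29a3-/- and double mutant libraries, and its part in the interactions was not tested.

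Cell cycle genes formed the largest group here. Positive were 36 of 51 G2 and M phase genes (median 1.38), 19 of 40 S phase genes (median 1.16) and 12 of 22 histones (median 1.24), with 1 S phase gene negative, and without Slc29a3-/- Ly6C hi replicate 4 the first 2 counts were 24 and 11. Sums in double mutant Ly6C hi cells were 2407 to 3178 RPM for G2 and M phase and 975 to 1480 RPM for S phase. Of the granule lists, 4 of 16 secondary genes (median 1.17; 2 without Slc29a3-/- Ly6C hi replicate 4) and 4 of 18 primary genes (median 1.07) were positive, and the secondary list summed to 38219, 14521, 14569 and 42141 RPM in double mutant Ly6C hi cells. Ngp (0.36 ± 1.27), S100a8 (-0.32 ± 1.09) and S100a9 (-0.93 ± 1.12) were not called, so a gap to the double mutants was not detectable for them at this spread.

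The genes with the largest positive values were Mmp9 (4.58 ± 0.84, adjusted P = 0.0014), Il1r2 (3.18 ± 0.66), Slc2a3 (3.09 ± 0.41), Ffar2 (a receptor for short-chain fatty acids, 2.97 ± 0.52) and Kif2c (2.66 ± 0.53). Mmp9 was at 15.9, 50.0, 26.6 and 56.4 RPM in Slc29a3-/- Ly6C hi cells and 0.318 to 0.946 RPM in Ly6C low cells, and in the double mutants its difference was -0.12. Ada (2.51 ± 0.42), Kit (2.36 ± 0.49), Cebpe (2.15 ± 0.37) and Uhrf1 (2.04 ± 0.34) were positive too. The largest negative values were those of Cd5l (-3.28 ± 0.76), Cd200r1 (-3.15 ± 0.47), Alas2 (erythroid heme synthesis, -3.14 ± 0.60), Slc4a1 (-3.07 ± 0.52) and C1qb (-2.92 ± 0.46). With a pseudocount of 0.1 in place of 1, Cd5l (-3.10, adjusted P = 0.128), Alas2 (-4.16, adjusted P = 0.0824) and Slc4a1 (-1.70, adjusted P = 0.258) were no longer called. Of 7 erythroid genes 5 were negative (median -2.02). The sums of that list in double mutants were 31.4 to 57.0 RPM in Ly6C hi and 19.5 to 62.3 RPM in Ly6C low cells, against 16.1 to 28.3 and 111 to 147 RPM in Slc29a3-/- mice, so the gap in sums was wider in Ly6C low cells. Of the classical monocyte genes 5 of 15 were negative and none positive (median -1.07), among them Fn1 (-1.63 ± 0.43), and without Slc29a3-/- Ly6C hi replicate 4 1 was.

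**Figure D4:**
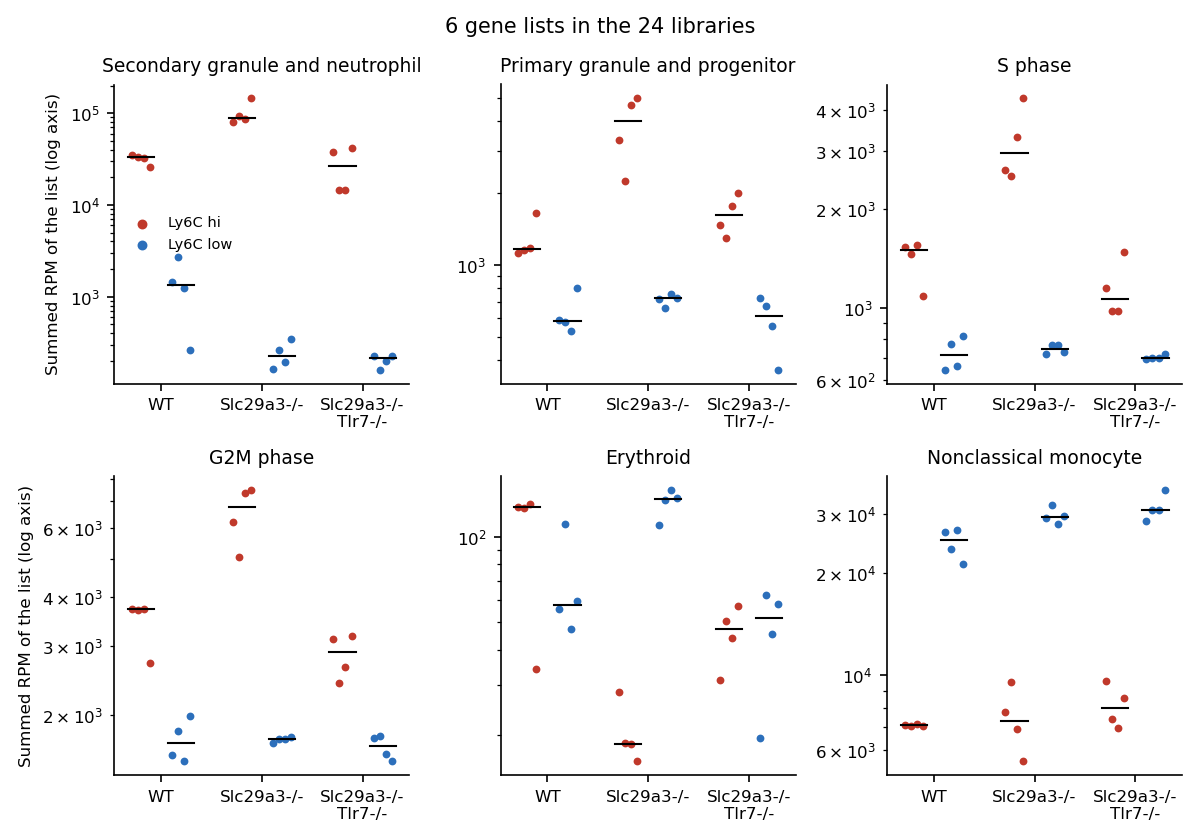
Summed RPM of 6 gene lists (y axes, log scale) in the 24 libraries, by genotype on the x axis, with red points for Ly6C hi and blue points for Ly6C low libraries and black lines for medians. The Slc29a3-/- Ly6C hi libraries are the highest for the secondary granule, primary granule, S phase and G2M lists. WT Ly6C low replicate 4 stands apart from WT replicates 1 to 3 in the secondary granule list, and WT Ly6C hi replicate 4 does so in the erythroid list.

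**Figure D5:**
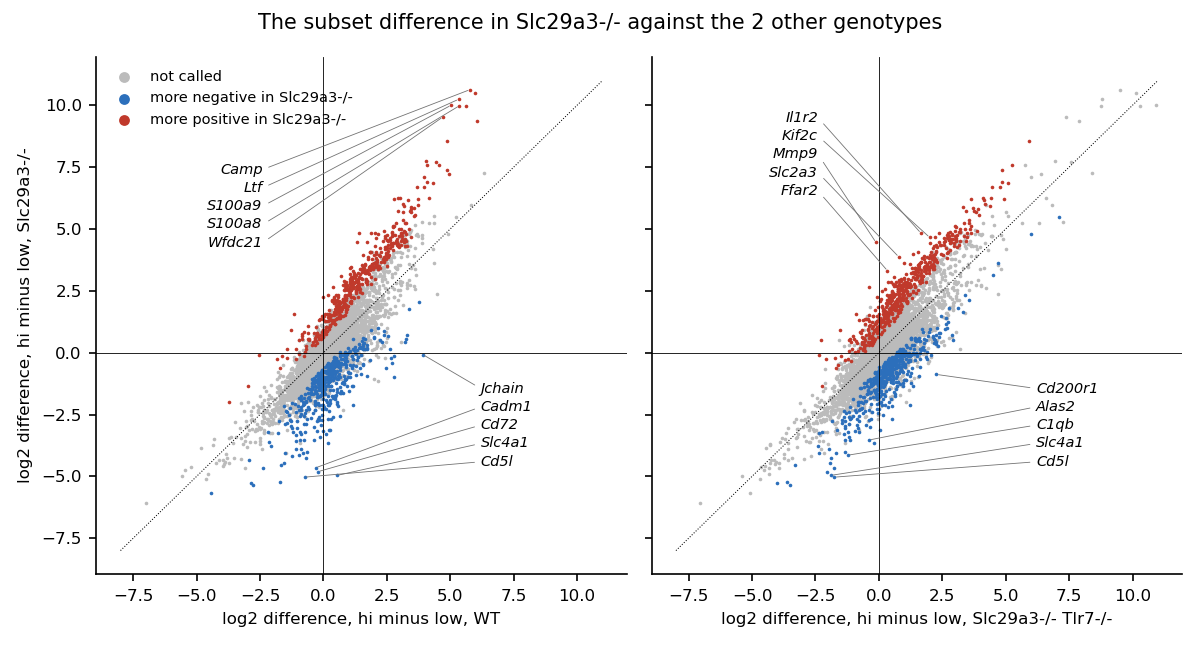
Difference between Ly6C hi and Ly6C low monocytes in Slc29a3-/- mice (y axes, log2) against that in WT mice (left) and Slc29a3-/- Tlr7-/- mice (right). Each point is 1 of the 10137 genes tested between the subsets of Slc29a3-/- mice. Red and blue points are those of them whose interaction was called positive and negative. Over all 11042 genes of the interaction fit, 454 (left) and 500 (right) were positive and 513 (left) and 487 (right) negative. The dotted line marks equal differences. The 5 largest values each way are named.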

How the data were processed

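Splenic monocytes were profiled with an AmpliSeq transcriptome panel for the mouse, in which 1 amplicon stands for each gene, on an Ion Proton sequencer. The authors deposited RPM values (reads per 1000000 reads) of 23930 amplicons for 24 libraries, in which an amplicon without reads was written as 0.0001 and was set to 0 here. The methods of the study name the AmpliSeqRNA plug-in, Cutadapt, STAR, HTSeq and RLE normalisation, with the mm10 genome. Which of these steps wrote the deposited table is not given in the sources used here, nor is the position of each amplicon. Gene names that a spreadsheet had turned into dates were repaired for 27 amplicons.

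Because RPM values are not counts, log2(RPM + 1) was fitted with limma 3.58.1 in R 4.3.3, with an intensity trend, on the 8 Slc29a3-/- libraries without a replicate block. Genes that reached 1 RPM in 4 or more of the 8 libraries were tested, and a gene was called when it differed by more than 1.5-fold with a Benjamini-Hochberg adjusted P below 0.05. Interactions with genotype came from 1 fit of all 24 libraries. The fit was tested on simulated data with 200 changed genes. RPM values are shares of a fixed total, so genes that take many reads lower all others. The SE values after ± come from the limma fit and hence from the spread between libraries. The detection limit of 3 reads covers counting error only. The number of reads was inferred from the step between low values, since no counts were used here.

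The named genes were the subset markers, Slc29a3, Tlr7, Fcer1g, Hcst, Tyrobp and Csf1r, the members of 39 gene lists with 784 genes (740 in the table), the 10 largest increases and 10 largest decreases between subsets, and the 5 largest values each way of each interaction, taken among genes whose mean reached 10 RPM with an adjusted P below 0.05 and, between subsets, no overlap. The libraries, members and lists were chosen with earlier results of these data known. Some list genes, such as Ly6c2, Chil3 and the globins, were not analysed here, and a few members that enter the counts are not reported by name. Promoter windows are the 250 bases before the start in RefSeq annotation of GRCm38.p6, and gene positions are from GENCODE vM21 on mm10. Alternatives were TMM and RLE scaling, other filters, another pseudocount, no trend, a replicate block, leaving out each library, and other sets of libraries. Library totals without granule genes and the averaging of WT replicates 1 to 3 were chosen after seeing the data. Tables were handled with pandas 2.3.3 and numpy 2.4.6 in Python 3.11.15 and figures drawn with matplotlib 3.10.9.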

Additional observations from a re-analysis of the deposited data

Results flagged for a closer look

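Among 298 groups of 4 Slc29a3-/- libraries, 1 group for each of 149 named genes in each subset, 16 had a library whose gap to the nearest other passed Dixon's critical value for 4 samples, where chance gives about 1 group in 20. The count was thus near that given by chance, and the libraries named below are a description. Ly6C hi replicate 4 was far above the others for Ngp (57331 RPM), Itgb2l (605 RPM) and Rrm2 (439.98 RPM). Ly6C hi replicate 1 was above the others for C1qb (11.1 RPM) and Cxcl10 (67.2 RPM), and replicate 3 stood apart for Ldhb (35.4 RPM). Ly6C hi replicate 2 was below the others for Siglecf (5.46 RPM) and stood apart for H2-Ob (2.61 RPM). Among Ly6C low libraries, replicate 4 was above the others for Itgb2l (0.477 RPM) and Kif11 (3.18 RPM), replicate 2 for Bcl6 (722 RPM), Itgb2 (3769 RPM) and Csf1r (2248 RPM), and replicate 1 was below the others for Fcer1g (4421 RPM). Ly6C low replicate 3 stood apart for Fos (29.6 RPM) and H2-Ob (18.3 RPM).

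The difference between the subsets was itself different between genotypes for the following genes by the limma interaction term. Set against WT mice, the interactions of S100a9 (4.97), Ltf (4.91), Camp (4.86), Wfdc21 (4.82) and S100a8 (4.62) were positive, and those of Slc4a1 (-5.50), Cd72 (-4.59), Cadm1 (-4.34), Cd5l (-4.29) and Jchain (-3.99) negative. With WT replicate 4 as the only WT pair, 9 of these 10 were no longer called, with S100a9 at 1.75, Ltf at 1.64, Camp at 1.89, Wfdc21 at 2.38, S100a8 at 1.57, Cd72 at -2.82, Cadm1 at -3.31, Cd5l at -4.42 and Jchain at -1.14, while Slc4a1 was at -3.95 (adjusted P = 0.0429). Set against Slc29a3-/- Tlr7-/- mice, Mmp9 (4.58), Il1r2 (3.18), Slc2a3 (3.09), Ffar2 (2.97) and Kif2c (2.66) were positive and Cd5l (-3.28), Cd200r1 (-3.15), Alas2 (-3.14), Slc4a1 (-3.07) and C1qb (-2.92) negative. Cd5l, Alas2 and Slc4a1 lost these calls with a pseudocount of 0.1 (adjusted P of 0.128, 0.0824 and 0.258), with Slc4a1 at -1.70.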

How the results depend on the processing

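The number of genes that differed between the subsets stayed within 1.5 times under every alternative run. Leaving out each of the 8 libraries gave 1731 to 1909 genes higher and 2034 to 2371 lower in Ly6C hi cells. Of 149 named genes, 8 lost their call at least once (Cd14, Jun, Dusp1, Fos, Gbp2, H2-Aa, Cd74 and Cd200r1) and Pglyrp1 and Tlr9 gained one. The sign turned for 3 genes that were not called: Irf8, at -0.039 without Ly6C hi replicate 1; Hcst, at 0.034 with TMM, 0.0504 with RLE and 0.12 with granule-free totals, and from -0.16 to 0.0445 on leaving out each library; and Jchain, at 0.0151 with RLE and 0.0826 with granule-free totals, and from -0.51 to 0.44 on leaving out each library. The causes were not tested.

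Interaction counts moved more. Against WT, 454 positive and 513 negative genes became 706 and 1000 with only the 16 libraries compared, 17 and 6 with WT replicate 4 alone, 168 and 92 with WT replicates 1 to 3 averaged, and 877 and 1356 at an unadjusted P; with a mean of at least 10 RPM, 309 were negative. Leaving out each library gave 313 to 504 positive and 332 to 771 negative. Against the double mutants, 500 positive genes became 316 with a mean of at least 10 RPM, 307 with a pseudocount of 0.1 and 891 at an unadjusted P. The 487 negative ones became 275 with TMM and with RLE, 312 with no filter, 287 with a mean of at least 10 RPM, 260 with only the 16 libraries and 1607 at an unadjusted P. Leaving out each library gave 327 to 562 positive and 245 to 709 negative. Of the 20 named interactions, 12 lost their call at least once. The median moved under some setting for 22 of 39 lists. The causes were not tested.

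Libraries of the 2 subsets share replicate numbers, but deviations of same-numbered Slc29a3-/- libraries correlated at 0.19, 0.17, -0.10 and 0.10. Ly6C hi replicates 1 and 2 correlated best with their own number, and replicates 3 and 4 with Ly6C low replicates 2 and 3 (0.16 each). The numbers were not taken to pair the libraries, although 11 of 12 same-numbered pairs of all genotypes matched in sex. With the replicate block, 1852 genes were higher and 2245 lower, and the interactions were 441 and 588 against WT and 468 and 493 against the double mutants. The planned fits with count models were not run, since the placeholder of 0.0001 for 0 reads kept the table from being accepted as whole reads, although all values under 5 RPM were multiples of 1 step. Depth limits values under about 0.24 RPM, and fitted differences of genes near 0 in 1 subset depend on the pseudocount.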
